A study of Homo sapiens with 6 samples.

Results

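The proteasome genes of K562 cells were compared between 3 libraries of cells given 20 µM 3FM-dC with 2 mM THU and 3 libraries of cells given DMSO, each for 24 h. Members were taken by symbol from a list of 47 genes: the subunits of the core particle and of the regulatory particle, the activators and the inhibitor, and the assembly chaperones. All 47 were among the 23710 gene symbols of the deposited count files, and all 47 passed the filter on low counts. K562 is a human chronic myelogenous leukaemia line with erythroid features, here at passages 13 to 16. The control cells received the same amount of DMSO, the solvent of both compounds, so that an effect of 3FM-dC alone and an effect of THU alone cannot be told apart. The labels name both compounds only by these abbreviations, describe 1 cell line, and do not say whether the replicates were separate cultures. The p-values therefore measure only how far these libraries spread, and that spread may be technical. The series title concerns a small-molecule activator of TET2, and the comparison here asks which proteasome genes differed between treated and control cells.

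The proteasome is the protease that degrades ubiquitin-tagged proteins in the cytosol and nucleus. Its barrel-shaped core particle stacks rings of alpha subunits, which form the gate, on rings of beta subunits, of which PSMB5, PSMB6 and PSMB7 carry the proteolytic sites. A regulatory particle made of a base and a lid recognises tagged proteins, removes the ubiquitin and unfolds the substrate into the core, and together they are called the 26S proteasome. Interferon-inducible subunits can replace the catalytic ones in the immunoproteasome, whose products feed antigen presentation. The transcription factor NFE2L1 raises proteasome gene transcription when proteolysis falls short, through antioxidant response elements in the genes' promoters.

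The promoters of 6 members are printed because these genes differ in response and in the motifs they hold. RefSeq promoter windows on GRCh38.p14, each of 250 bases before to 50 bases after a start site, matched 41 of the 47 members in 50 windows, since 8 members have several starts. The unmatched members were PSMA7, PSMB1, PSMB6, PSMB7, PSMD4 and PSMG3. Each line holds the 250 bases upstream of the most upstream start, 5′ to 3′ on the gene's strand. Capitals mark matches, on either strand, to the antioxidant response element core TGACNNNGC, the CCAAT box, or the interferon-stimulated response element core (GAAA, any 2 bases, GAAA). PSMB3 and PSMD12 were lower in treated cells, PSMA1 did not pass the test, PSMB9 was higher, PSMB10 was lower, and PSME2 did not pass.
PSMB3, chr17:38752491-38752740, plus strand: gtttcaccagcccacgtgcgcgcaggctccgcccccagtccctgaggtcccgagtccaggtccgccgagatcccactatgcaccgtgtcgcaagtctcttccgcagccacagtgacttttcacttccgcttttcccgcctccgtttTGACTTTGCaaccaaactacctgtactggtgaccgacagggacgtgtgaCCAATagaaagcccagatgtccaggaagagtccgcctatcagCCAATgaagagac
PSMD12, chr17:67366578-67366827, minus strand: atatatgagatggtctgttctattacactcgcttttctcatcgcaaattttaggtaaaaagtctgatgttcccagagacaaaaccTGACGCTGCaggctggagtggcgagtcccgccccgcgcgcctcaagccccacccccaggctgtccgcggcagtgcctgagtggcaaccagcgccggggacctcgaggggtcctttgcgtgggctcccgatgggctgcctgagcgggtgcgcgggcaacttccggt
PSMA1, chr11:14520387-14520636, minus strand: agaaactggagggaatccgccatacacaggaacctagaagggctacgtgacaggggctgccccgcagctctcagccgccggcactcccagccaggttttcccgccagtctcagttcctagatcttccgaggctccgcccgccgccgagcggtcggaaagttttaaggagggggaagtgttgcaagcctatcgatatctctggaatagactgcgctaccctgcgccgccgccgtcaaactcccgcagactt
PSMB9, chr6:32853942-32854191, plus strand: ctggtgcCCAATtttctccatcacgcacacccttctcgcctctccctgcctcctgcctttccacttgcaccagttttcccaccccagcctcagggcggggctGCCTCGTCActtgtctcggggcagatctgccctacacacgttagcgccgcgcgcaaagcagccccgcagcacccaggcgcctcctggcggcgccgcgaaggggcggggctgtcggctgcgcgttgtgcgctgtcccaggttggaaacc
PSMB10, chr16:67936851-67937100, minus strand: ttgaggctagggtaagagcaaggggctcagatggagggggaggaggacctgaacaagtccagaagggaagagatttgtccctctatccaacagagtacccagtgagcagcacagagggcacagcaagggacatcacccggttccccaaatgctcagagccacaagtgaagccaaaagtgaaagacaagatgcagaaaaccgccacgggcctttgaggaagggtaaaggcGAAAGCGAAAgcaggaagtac
PSME2, chr14:24146611-24146860, minus strand: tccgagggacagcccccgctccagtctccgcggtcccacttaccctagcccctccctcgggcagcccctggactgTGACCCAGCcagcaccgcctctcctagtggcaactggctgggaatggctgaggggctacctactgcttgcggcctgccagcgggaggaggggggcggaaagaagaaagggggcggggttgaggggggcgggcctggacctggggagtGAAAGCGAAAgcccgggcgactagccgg
The core subunit gene PSMB3 holds 1 antioxidant core and 2 CCAAT boxes. PSMB9 holds its antioxidant core on the opposite strand. The immune subunit gene PSMB10 and the activator gene PSME2 share the letters of their interferon motif, which stood in 5 members in all. No match to the 3 motifs was found in the printed window of PSMA1.

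Over the full windows of 300 bases, TGACNNNGC was found in 15 of the 50 member windows (30%) and in 13.4% of the 35116 windows of all genes. CCAAT was found in 19 member windows (38%) and in 34.6% of all windows. The interferon-stimulated response element core was found in 7 member windows (14%) and in 3.57% of all windows. In the 32 windows of core, base and lid subunits, TGACNNNGC was found in 7 (21.9%), CCAAT in 15 (46.9%) and the interferon core in 2 (6.25%). In the 250 upstream bases alone, TGACNNNGC was found in 5 of these 32 windows (15.6%) and in 10.9% of all windows. No matches to different motifs overlapped in the member windows. Among windows of members that were lower in treated cells, 11 of 39 held the antioxidant core, 17 held CCAAT and 3 held the interferon core. Among the 11 windows of the other members these numbers were 4, 2 and 4. These are counts of letters in 1 fixed window per start, and no binding was measured.

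Gene counts summed to 18408826 in the shallowest library and 22750278 in the deepest. Levels are given as CPM, counts relative to the TMM-scaled library size, and 3 counts amount to 0.136 to 0.168 CPM. The first principal component took 84.1% of the variance. In the quasi-likelihood test of edgeR, adjusted by Benjamini-Hochberg over the 12339 genes tested, 66.4% changed at an adjusted p under 0.05, with 32.7% lower and 33.8% higher in treated cells. Scaling by total counts in place of TMM moved the median log2 fold change of all genes up by 0.09, and the split from 4031 lower and 4167 higher to 3189 lower and 5048 higher. The erythroid markers of K562 were detected in every library: the embryonic globin gene HBE1 stood at 2648 to 2693 CPM in DMSO and 1304 to 1345 CPM in treated libraries, and the erythroid factor gene GATA1 at 254 to 271 CPM and 171 to 186 CPM. The 5 lymphoid markers summed to 0.673 to 1.41 CPM in DMSO libraries and 2.19 to 3.33 CPM in treated libraries, with MS4A1 and CD2 at 0 everywhere. The 5 fibroblast markers summed to 6.85 to 10.5 CPM against 5.91 to 8.61 CPM, with LUM at 0. The 5 epithelial markers summed to 102 to 103 CPM against 60.7 to 63.7 CPM, nearly all of it EPCAM, with KRT5 and KRT14 at 0. The part of these markers in the proteasome results was not tested. In bulk RNA, fewer cells of a type and less RNA per cell cannot be told apart.

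Most proteasome genes were lower in the treated cells, by small amounts. Of the 47 members, 38 were lower, 2 were higher (PSMB9 and PSME1), and 7 did not pass the test (PSMA1, PSMB8, PSMD9, PSMD10, PSME2, PSMF1, PSMG4). The 38 lower members make up 80.9% of the members, and 32.7% of all genes tested were lower. The falls ran from 1.11-fold to 1.63-fold, and 1 member (PSMB9) differed by at least 2-fold, where 12.7% of all genes tested did. PSMB9 passed the filter on low counts only through the treated libraries, so counting it as higher is no support for a rise. With a filter at 5 CPM it was not tested. The median log2 fold change was -0.34 over the members and 0.01 over all genes tested. The groups of 3 libraries did not overlap in 41 members, in 38 of them with the treated libraries lower, while 70.0% of all genes tested did not overlap and 34.5% were lower without overlap. Summed over the members, the level was 10114 ± 26.6 CPM (SD, n = 3) in DMSO libraries and 7892 ± 159 CPM (SD, n = 3) in treated ones, a difference of -22.0%. As a share of the gene counts, without TMM scaling, the members took 0.980%, 0.977% and 0.981% in the DMSO libraries and 0.827%, 0.807% and 0.807% in the treated libraries. With total-count scaling 35 members were lower and 5 higher: PSMC3, PSMD4 and PSMG3 no longer passed, and PSMA1, PSMD10 and PSMF1 passed as higher. Of the 12339 genes tested, 3189 were lower and 5048 higher with that scaling. Against a minimum fold of 1.2, 25 members were lower and 1 was higher, beside 2124 lower and 2641 higher of the 12339 genes.

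**Figure D1:**
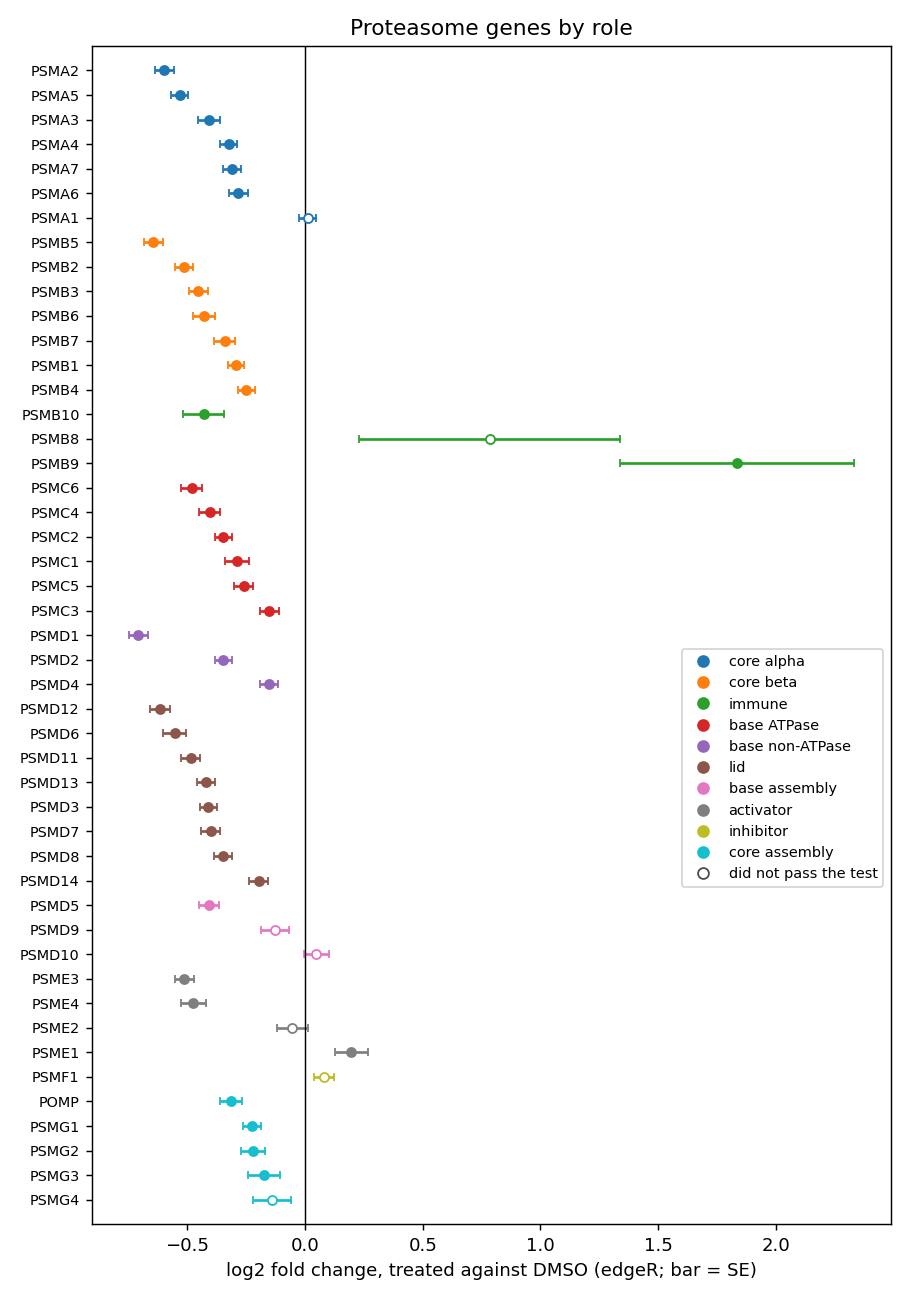
Log2 fold change (x axis, treated against DMSO) of each of the 47 proteasome genes (y axis, coloured by role), with the standard error as a bar. Filled points passed edgeR's test and open points did not. All points of the core beta ring, the base ATPases and the lid lie to the left of 0, and PSMB9 lies farthest to the right at 1.83.

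The proteasome genes are strongly expressed, and strongly expressed genes were more often lower in this comparison. Among the 4791 tested genes whose mean reached 50 CPM, a limit chosen after the values were seen, 51.1% were lower and the median log2 fold change was -0.12. Of the 41 members at that level 36 were lower, with a median of -0.35. The size of the single changes was ordinary for these libraries: the median absolute log2 fold change of all genes tested was 0.33, and the lower core, base and lid subunits lay between the percentiles 25.4 and 78.7 of the absolute values.

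**Figure D2:**
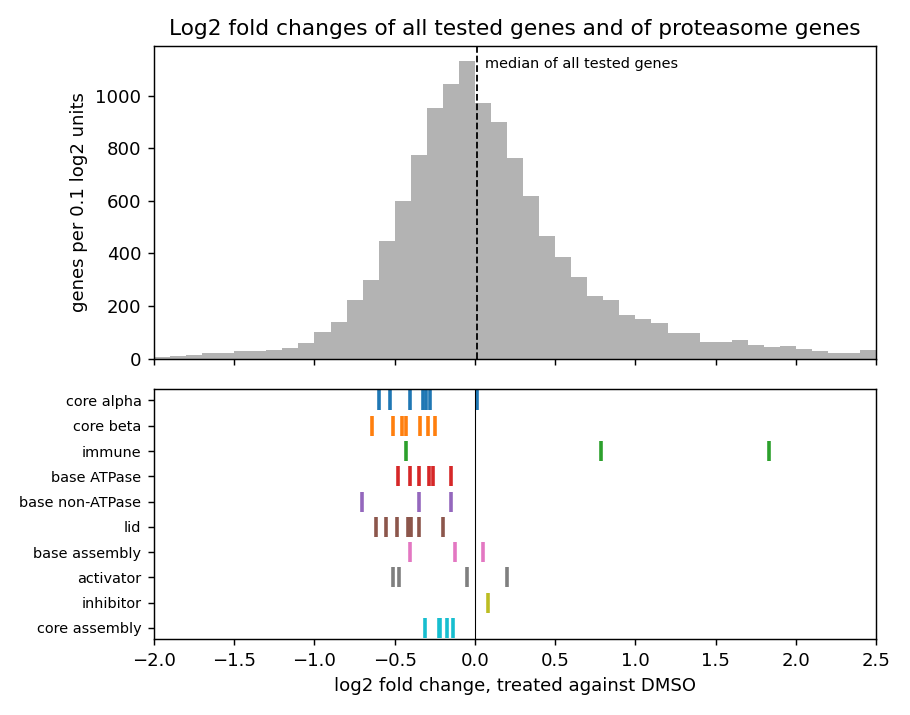
Upper panel: number of tested genes (y axis, per 0.1 log2 units) at each log2 fold change (x axis, treated against DMSO). 347 genes outside -2 to 2.5 are not drawn, and the dashed line is the median of all genes tested, 0.01. Lower panel: 1 tick per proteasome gene, in rows by role; most ticks lie to the left of the line, within the bulk of the histogram.

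The alpha subunits form the outer rings and the gate of the core. They were lower in 6 of 7 genes (85.7% beside 32.7% of all genes tested). The median log2 fold change over the 7 was -0.32. PSMA2 stood at 256, 247 and 244 CPM in the DMSO libraries and at 165, 161 and 168 CPM in the treated ones. Every treated library was below every DMSO library, and the log2 fold change was -0.60 (SE 0.04, edgeR adjusted p = 1.01e-13). PSMA5 stood at 329, 319 and 318 CPM in DMSO and at 228, 217 and 225 CPM in treated libraries. Its groups did not overlap either (log2 fold change -0.53, edgeR adjusted p = 4.16e-13). PSMA3, PSMA4, PSMA6 and PSMA7 fell by between 0.28 and 0.41 on the log2 scale.

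PSMA1 was the exception among the alpha subunits. It stood at 307, 301 and 305 CPM in DMSO libraries and at 305, 307 and 309 CPM in treated libraries, and the groups overlapped. The log2 fold change was 0.01 (SE 0.04, edgeR adjusted p = 0.788). With total-count scaling it was 0.10 and passed the test (edgeR adjusted p = 0.00997).

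All 7 constitutive beta subunits fell (100% beside 32.7% of all genes tested), with a median log2 fold change of -0.43. PSMB5, which carries the chymotrypsin-like site, stood at 214, 205 and 213 CPM in DMSO libraries and at 140.2, 132 and 132 CPM in treated libraries. The groups lay well apart, and the mean was 1.56-fold lower in treated cells (log2 fold change -0.64, SE 0.04, edgeR adjusted p = 7.46e-14). PSMB2, a non-catalytic subunit with the highest mean count level of the beta genes, stood at 539.7, 540.0 and 567 CPM in DMSO and at 406, 376 and 374 CPM in treated libraries (log2 fold change -0.51, edgeR adjusted p = 7.6e-13).
PSMB6, the caspase-like subunit, stood at 111, 114 and 116 CPM in DMSO and at 85.7, 83.9 and 84.1 CPM in treated libraries. All treated values were below all DMSO values (log2 fold change -0.43, SE 0.05, edgeR adjusted p = 4.01e-09). PSMB7, the trypsin-like subunit, stood at 169, 175 and 186 CPM in DMSO and at 146, 137 and 136 CPM in treated libraries, again without overlap (log2 fold change -0.34, edgeR adjusted p = 1.42e-07). PSMB1, PSMB3 and PSMB4 fell by 0.29, 0.45 and 0.25 on the log2 scale. The 14 core subunits together summed to 3842 ± 34.5 CPM in DMSO and 2975 ± 56.5 CPM in treated libraries (SD, n = 3 each), a difference of -22.6%.

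**Figure D3:**
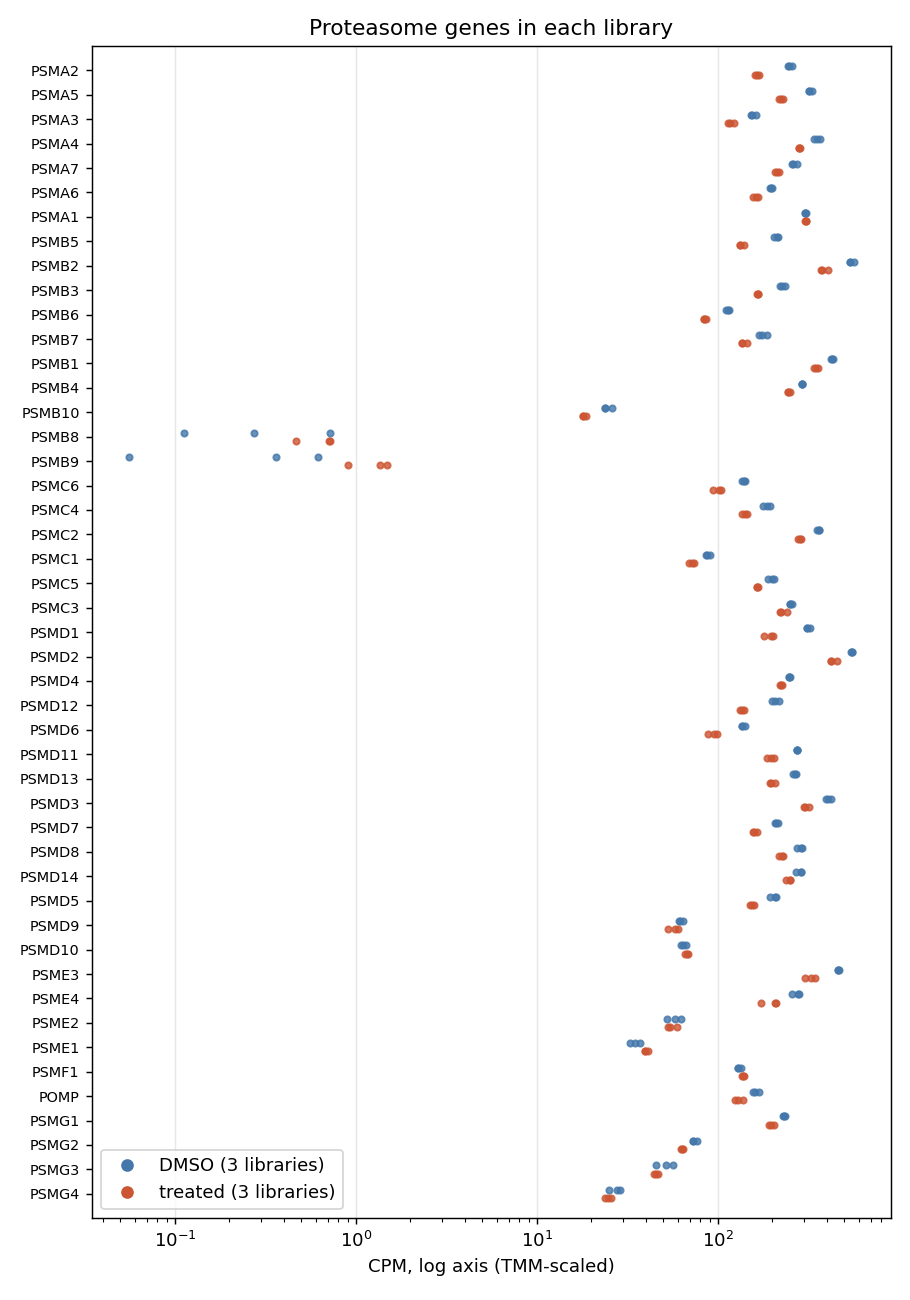
CPM of each proteasome gene (x axis, log scale, TMM-scaled) in each library, with genes in rows by role. Blue points are the 3 DMSO libraries and red points the 3 treated libraries; for most core, base and lid genes the red points lie to the left of the blue ones without overlap, while PSMB8 and PSMB9 sit near or below 1 CPM.

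The immunoproteasome subunits did not move together. PSMB10, which replaces PSMB7, stood at 26.2, 23.9 and 23.7 CPM in DMSO libraries and at 18.7, 18.1 and 18.0 CPM in treated libraries. It fell like the constitutive subunits, without overlap (log2 fold change -0.43, SE 0.09, edgeR adjusted p = 7.16e-05). PSMB9, which replaces PSMB6, was barely expressed, with 1, 11 and 8 counts in the DMSO libraries and 29, 19 and 29 counts in the treated libraries. These counts correspond to 0.0555, 0.617 and 0.363 CPM against 1.49, 0.905 and 1.36 CPM. Every treated library was above every DMSO library, and the log2 fold change was 1.83 (SE 0.50, edgeR adjusted p = 0.00178). The first DMSO library lay below the level of 3 counts. Leaving it out lowered the log2 fold change to 1.36 (edgeR adjusted p = 0.0206), and leaving out DMSO replicate 2 raised it to 2.45 (edgeR adjusted p = 0.00124). PSMB9 passed the filter on low counts only through the treated libraries.
PSMB8, which replaces PSMB5, had 13, 2 and 6 counts in DMSO and 14, 15 and 10 counts in treated libraries, or 0.721, 0.112 and 0.272 CPM against 0.717, 0.714 and 0.469 CPM. The groups overlapped through DMSO replicate 1, and the log2 fold change of 0.78 had a standard error of 0.55 (edgeR adjusted p = 0.209). Without that library it was 1.63 (edgeR adjusted p = 0.0400). The DMSO libraries left then had 2 and 6 counts, and PSMB8 passed the filter on low counts only through the treated libraries. That p-value is therefore no support for a rise.

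Each immune subunit was also set against the constitutive subunit it replaces, as a log2 ratio within each library. The PSMB9 to PSMB6 ratio had a mean of -8.25 in DMSO and -6.00 in treated libraries, a difference of 2.26, with all treated ratios above all DMSO ratios. The PSMB8 to PSMB5 ratio differed by 1.49 in the same direction, also without overlap. Both had an exact two-sided permutation p of 0.1, the smallest that 3 libraries against 3 allow, and an adjusted p of 0.15 over the 3 pairs. The PSMB10 to PSMB7 ratio differed by -0.09 (exact permutation p = 0.5, adjusted p = 0.5). None of the 3 differences could pass a threshold of 0.05 in this design, so the ratios are given as description only. The ratios of PSMB8 and PSMB9 rest on few counts, and PSMB9 passed the low-count filter only through the treated libraries. With prior counts of 0.5 and 5 the PSMB9 to PSMB6 difference was 2.63 and 1.86. The PSMB8 to PSMB5 difference was then 1.69 and 1.26.

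**Figure D4:**
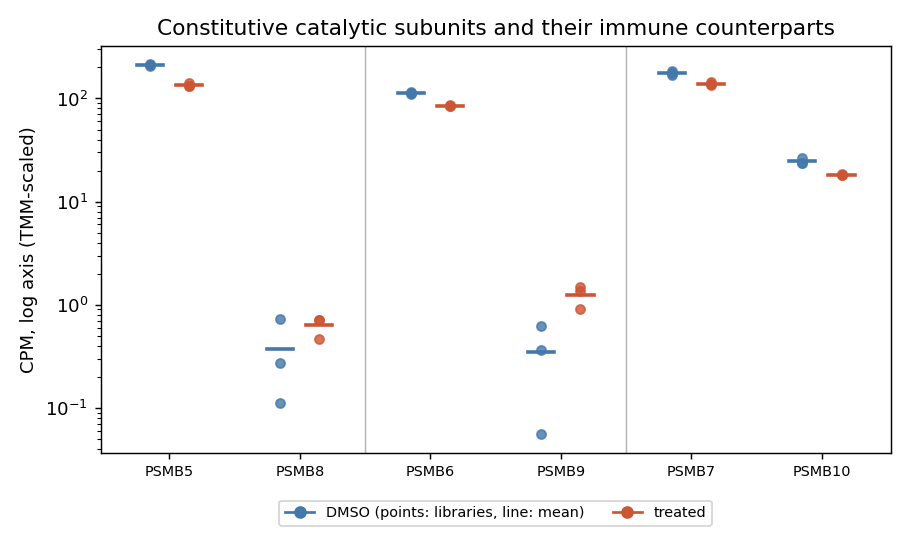
CPM (y axis, log scale, TMM-scaled) of the constitutive catalytic subunits and of the immune subunit that replaces each (x axis). Points are libraries and lines are group means, with DMSO in blue and treated in red; PSMB5, PSMB6, PSMB7 and PSMB10 are lower in treated cells, and PSMB9 is higher at about 1 CPM.

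The 6 ATPases of the base unfold the substrate and open the core. All 6 fell (100% beside 32.7% of all genes tested), with a median log2 fold change of -0.32. PSMC6 had the largest fall, from 137, 139 and 142 CPM in DMSO to 104, 94.5 and 101 CPM in treated libraries. The groups were well apart (log2 fold change -0.48, edgeR adjusted p = 3.66e-10). PSMC4 stood at 187, 177 and 194 CPM in DMSO and at 137, 145 and 141 CPM in treated libraries, without overlap (log2 fold change -0.40, edgeR adjusted p = 3.16e-09). PSMC3 had the smallest fall of the ATPases, from 251, 252 and 256 CPM to 223, 240.0 and 220.3 CPM. It was lower in all treated libraries by a small margin (log2 fold change -0.15, edgeR adjusted p = 0.00140) and did not pass with total-count scaling. PSMC1, PSMC2 and PSMC5 lay between, at -0.29, -0.35 and -0.26.

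The non-ATPase subunits of the base bind ubiquitin chains or the proteins that carry them. All 3 fell (100% beside 32.7% of all genes tested). PSMD1, the large scaffold subunit that docks the ubiquitin receptor ADRM1, stood at 309, 312 and 322 CPM in DMSO and at 202, 179 and 197 CPM in treated libraries. This was the largest fall of all 47 members, 1.63-fold (log2 fold change -0.71, SE 0.04, edgeR adjusted p = 9.84e-15). PSMD2, the other scaffold subunit, stood at 553, 544 and 552 CPM in DMSO and at 455, 421 and 422 CPM in treated libraries, without overlap (log2 fold change -0.35, edgeR adjusted p = 1.16e-09). PSMD4, a ubiquitin receptor, differed little: it stood at 248, 251 and 247 CPM in DMSO and at 224, 227 and 219.7 CPM in treated libraries. The difference exceeded the spread of the libraries (log2 fold change -0.15, edgeR adjusted p = 0.000697) but did not pass with total-count scaling (edgeR adjusted p = 0.139).

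All 8 lid subunits fell (100% beside 32.7% of all genes tested), with a median log2 fold change of -0.41. PSMD12, a scaffold subunit of the lid, stood at 208, 216 and 199 CPM in DMSO and at 139, 133 and 136 CPM in treated libraries. The groups did not overlap, and the log2 fold change was -0.61 (edgeR adjusted p = 3.08e-13). PSMD6, also a scaffold subunit, stood at 136, 141 and 135 CPM in DMSO and at 94.9, 88.3 and 98.5 CPM in treated libraries (log2 fold change -0.55, edgeR adjusted p = 3.73e-11). PSMD14, the deubiquitinase that removes ubiquitin chains from substrates, had the smallest fall of the lid. It stood at 288, 289 and 271 CPM in DMSO and at 251, 239 and 249.9 CPM in treated libraries, still without overlap (log2 fold change -0.20, edgeR adjusted p = 5.94e-05). PSMD3, PSMD7, PSMD8, PSMD11 and PSMD13 fell by 0.41, 0.40, 0.35, 0.48 and 0.42 on the log2 scale. Base and lid together summed to 4409 ± 14.7 CPM in DMSO and 3400.1 ± 66.8 CPM in treated libraries (SD, n = 3 each), a difference of -22.9%, beside -22.6% for the core.

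The falls were uneven among the 31 constitutive subunits of core, base and lid. Of these, 30 were lower (96.8% beside 32.7% of all genes tested), with a median log2 fold change of -0.40 over the 31. The falls of PSMA2, PSMB5, PSMD1 and PSMD12 were at least 1.5-fold, 5 subunits fell by under 1.2-fold, and 21 lay between. The spread between replicates was small beside these differences, with a median coefficient of variation of 2.31% in DMSO libraries and 2.66% in treated libraries. Divided by the exon length of RefSeq-matched GENCODE 29 transcripts on GRCh38, the DMSO levels of these subunits ran from 19.8 CPM per kb (PSMC1) to 461 CPM per kb (PSMB1), with a median of 145. In treated libraries they ran from 16.2 to 376 CPM per kb, for the same genes, with a median of 111. PSMB1 was first and PSMA4 second in both groups, PSMA4 at 347 CPM per kb in DMSO and 277 in treated libraries. PSMB5 stood at 144 CPM per kb in DMSO and at 92.1 in treated libraries. The level of PSMC1 is uncertain, since at least 82.1% of its exon length overlaps NRDE2 on the opposite strand. The strand setting of the counting is not stated. In all, 8 of the 47 members overlap exons of another gene's RefSeq mRNA-matched transcripts, 7 of them on the opposite strand. Overlaps with noncoding and antisense transcripts were not counted. Named pseudogenes, which can share reads, exist for 12 members.

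The activators, which bind the core in place of the regulatory particle, fell in 2 of 4 genes (50% beside 32.7% of all genes tested) and rose in 1 (25% beside 33.8%), so that the counts alone do not set them apart. PSME3, the nuclear activator subunit REG gamma, stood at 463, 469 and 462 CPM in DMSO and at 344, 305 and 329 CPM in treated libraries. The groups did not overlap (log2 fold change -0.51, edgeR adjusted p = 2.16e-12). PSME4, the activator PA200, stood at 276, 282 and 258 CPM in DMSO and at 207, 173 and 209 CPM in treated libraries, also without overlap (log2 fold change -0.47, edgeR adjusted p = 3.86e-09).
The interferon-inducible pair PSME1 and PSME2, which form 1 activator ring together, differed from these. PSME1 stood at 32.8, 34.8 and 37.0 CPM in DMSO and at 39.5, 39.4 and 41.2 CPM in treated libraries. The treated libraries were higher by a narrow margin (log2 fold change 0.20, SE 0.07, edgeR adjusted p = 0.0123), and the call was lost without DMSO replicate 1 (edgeR adjusted p = 0.0880) or without treated replicate 3 (edgeR adjusted p = 0.0580). PSME2 stood at 52.5, 62.6 and 58.0 CPM in DMSO and at 59.7, 53.2 and 54.1 CPM in treated libraries. Its groups overlapped and it did not pass the test (log2 fold change -0.05, edgeR adjusted p = 0.489). PSMF1, the inhibitor PI31, stood at 129, 134 and 129.7 CPM in DMSO and at 138, 140.1 and 136 CPM in treated libraries. It did not pass the test (log2 fold change 0.08, edgeR adjusted p = 0.0978), although the groups did not overlap, and it passed as higher with total-count scaling (edgeR adjusted p = 0.000705) and with a filter at 5 CPM (edgeR adjusted p = 0.0111).

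The core assembly factors fell in 4 of 5 genes (80% beside 32.7% of all genes tested), with a median log2 fold change of -0.22. POMP, the chaperone that guides the joining of core precursors, stood at 169, 161 and 156 CPM in DMSO and at 124, 138 and 129 CPM in treated libraries, without overlap (log2 fold change -0.31, edgeR adjusted p = 8.2e-07). PSMG1 and PSMG2 pair to build the alpha ring. PSMG1 stood at 229, 231 and 236 CPM in DMSO and at 206, 193 and 198 CPM in treated libraries (log2 fold change -0.23, edgeR adjusted p = 1.01e-05). PSMG2 stood at 72.7, 72.5 and 76.5 CPM in DMSO and at 63.4, 64.5 and 62.6 CPM in treated libraries (log2 fold change -0.22, edgeR adjusted p = 0.000598). Neither gene's groups overlapped.
PSMG3 and PSMG4 form the other pair of alpha ring chaperones. PSMG3 stood at 51.5, 45.3 and 56.3 CPM in DMSO and at 45.4, 46.6 and 44.3 CPM in treated libraries. Its groups overlapped and the fall was marginal (log2 fold change -0.17, SE 0.07, edgeR adjusted p = 0.0289). The call was lost without DMSO replicate 1 (edgeR adjusted p = 0.0629), DMSO replicate 3 (0.278) or treated replicate 3 (0.0915), with total-count scaling (0.30) and with a filter at 5 CPM (0.0978). PSMG4 stood at 25.1, 27.6 and 29.0 CPM in DMSO and at 23.7, 25.7 and 24.8 CPM in treated libraries, with overlap (log2 fold change -0.14, edgeR adjusted p = 0.127). The antisense transcript PSMG3-AS1, matched by name, stood at 2.39, 2.30 and 2.63 CPM in DMSO and at 5.02, 10.1 and 8.02 CPM in treated libraries (log2 fold change 1.66, edgeR adjusted p = 1.78e-07).

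Of the chaperones that assemble the base, 1 of 3 fell (33.3%), close to the 32.7% of all genes tested. PSMD5 stood at 208, 210.3 and 195 CPM in DMSO and at 154, 151 and 158 CPM in treated libraries, without overlap (log2 fold change -0.41, edgeR adjusted p = 1.43e-09). PSMD9 stood at 61.1, 62.2 and 63.9 CPM in DMSO and at 60.4, 58.1 and 53.1 CPM in treated libraries. All treated values were below the DMSO values, but the difference missed the threshold (log2 fold change -0.13, edgeR adjusted p = 0.0571), and it passed without treated replicate 1 (edgeR adjusted p = 0.0178) or 2 (edgeR adjusted p = 0.0493). PSMD10, the oncoprotein gankyrin, stood at 66.9, 62.8 and 64.5 CPM in DMSO and at 67.4, 68.1 and 65.5 CPM in treated libraries. The groups overlapped (log2 fold change 0.05, edgeR adjusted p = 0.431), and it passed as higher with total-count scaling (edgeR adjusted p = 0.0238).

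Factors that associate with the proteasome showed small falls as well. Of 13 tested, 11 were lower (84.6% beside 32.7% of all genes tested), 1 was higher and 1 did not pass, with a median log2 fold change of -0.22. With total-count scaling KIAA0368 (edgeR adjusted p = 0.431) and TXNL1 (0.617) were among those that lost their calls. With a filter at 5 CPM KIAA0368 (edgeR adjusted p = 0.0505) and TXNL1 (0.179) lost them too. TXNL1 also lost its call with DESeq2 (DESeq2 adjusted p = 0.0613), and without DMSO replicate 1 (edgeR adjusted p = 0.332) or treated replicate 3 (0.177). UCHL5, a deubiquitinase bound through ADRM1, stood at 273, 273 and 260.3 CPM in DMSO and at 196, 180.2 and 186 CPM in treated libraries, without overlap (log2 fold change -0.52, edgeR adjusted p = 4.02e-12). The ubiquitin ligase UBE3C fell by 0.39 (edgeR adjusted p = 1.96e-09) and the deubiquitinase USP14 by 0.31 (edgeR adjusted p = 4.96e-08) on the log2 scale. ADRM1, a ubiquitin receptor, fell by 0.23 (edgeR adjusted p = 4.75e-05). SHFM1, the symbol the files use for the small lid subunit SEM1, fell by 0.19 (edgeR adjusted p = 0.00120) and did not pass with total-count scaling (edgeR adjusted p = 0.0623). PAAF1, a protein that binds free regulatory particle ATPases, was the member of this list that was higher, at 0.20 (edgeR adjusted p = 0.0103), a call lost without DMSO replicate 1 (edgeR adjusted p = 0.0635). The tissue-restricted subunits PSMA8 of testis and PSMB11 of thymus had 0 counts in every library.

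The regulators of proteasome genes were, as a list, close to all genes tested, and single members stood out. Of 10 tested, 3 were higher (30% beside 33.8% of all genes tested), 4 were lower (40% beside 32.7%) and 3 did not pass, and the list's median log2 fold change was 0.01. NFE2L1 stood at 162, 166 and 166 CPM in DMSO and at 309, 320.4 and 316 CPM in treated libraries. It was 1.91-fold higher in treated cells, with the groups far apart (log2 fold change 0.94, SE 0.04, edgeR adjusted p = 1.31e-18). NFE2L2, its relative in the oxidative stress response, stood at 104, 106 and 98.4 CPM in DMSO and at 155, 185 and 177 CPM in treated libraries, also without overlap (log2 fold change 0.75, edgeR adjusted p = 4.16e-13). DDI2, the protease that cleaves NFE2L1 into its active form, was lower, at 27.6, 35.3 and 27.8 CPM in DMSO and at 20.8, 20.4 and 23.1 CPM in treated libraries (log2 fold change -0.49, edgeR adjusted p = 2.85e-05). NGLY1, the enzyme that removes sugar chains from NFE2L1 before that cleavage, fell by 0.25 on the log2 scale (edgeR adjusted p = 1.37e-05). NFE2L3, another relative, fell by 0.90 (edgeR adjusted p = 1.28e-08), and the partner MAFK by 0.56 (edgeR adjusted p = 2.11e-06). AKIRIN2, counted in this list, mediates proteasome import into the nucleus and is not a transcription regulator of these genes. It was higher by 0.39 (edgeR adjusted p = 5.27e-07). The transcript level does not give the amount of cleaved NFE2L1, which was not measured.

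**Figure D5:**
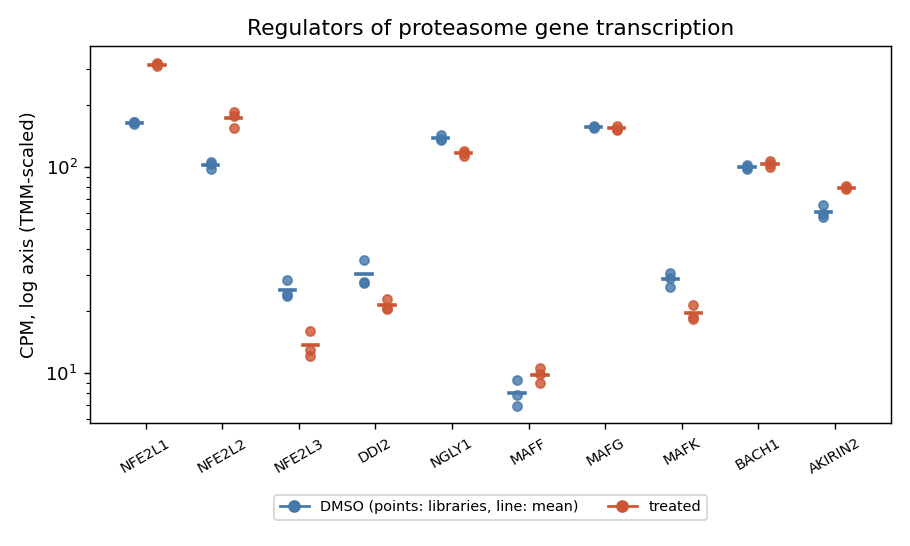
CPM (y axis, log scale, TMM-scaled) of the 10 genes listed as regulators of proteasome genes (x axis). AKIRIN2 is among them although its role given here is proteasome import. Points are libraries and lines are group means, with DMSO in blue and treated in red; NFE2L1, NFE2L2 and AKIRIN2 are higher in treated cells, and NFE2L3, DDI2, NGLY1 and MAFK are lower.

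The genes that supply ubiquitin showed small differences in both directions. Of 6 tested, 2 were higher (33.3% beside 33.8% of all genes tested), 3 were lower (50% beside 32.7%) and 1 did not pass. The polyubiquitin gene UBB had a log2 fold change of -0.05 and did not pass (edgeR adjusted p = 0.177). The activating enzyme UBA6 fell by 0.20 on the log2 scale (edgeR adjusted p = 0.000163). Among 6 genes of the p97 unfoldase, which extracts tagged proteins for the proteasome, 5 were lower (83.3% beside 32.7% of all genes tested) and 1 did not pass, with a median log2 fold change of -0.18. FAF1, at -0.09, lost its call with total-count scaling (edgeR adjusted p = 0.997), with a filter at 5 CPM (0.260), with the replicate block (0.0594), and without any 1 of 4 libraries, DMSO replicates 1 to 3 and treated replicate 1 (0.0529 to 0.131). VCP, which encodes p97 itself, fell by 0.32 (edgeR adjusted p = 1.09e-08) and its cofactor NSFL1C by 0.33 (edgeR adjusted p = 1.19e-06).

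Antigen presentation genes, which use the peptides the proteasome makes, moved the other way in most cases. Of 11 tested, 9 were higher (81.8% beside 33.8% of all genes tested), 1 was lower and 1 did not pass, with a median log2 fold change of 0.63. The lower gene, B2M, at -0.09, lost its call with total-count scaling (edgeR adjusted p = 0.977), with a filter at 5 CPM (0.217), and without DMSO replicate 1 (0.0637), DMSO replicate 2 (0.0978) or treated replicate 3 (0.185). Of the higher genes, HLA-B, with 7, 13 and 8 counts in DMSO and 29, 26 and 14 counts in treated libraries, passed the filter only through the treated libraries. Its call was lost without DMSO replicate 1 (edgeR adjusted p = 0.0788), DMSO replicate 3 (0.102), treated replicate 1 (0.107) or treated replicate 2 (0.0521). TAPBP lost its call without DMSO replicate 1 (edgeR adjusted p = 0.0974), treated replicate 1 (0.0581) or treated replicate 3 (0.0575). TAP1, a peptide transporter subunit, stood at 2.89, 2.97 and 2.18 CPM in DMSO and at 7.17, 5.95 and 5.63 CPM in treated libraries, without overlap (log2 fold change 1.23, edgeR adjusted p = 5.3e-06). TAP2, the other subunit, was higher by 0.13 (edgeR adjusted p = 0.0238), a call lost without DMSO replicate 1 (edgeR adjusted p = 0.143), DMSO replicate 2 (0.0838) or treated replicate 1 (0.117). With no filter the TAP2 call was lost as well (edgeR adjusted p = 0.0505). In the RefSeq gene order PSMB8 lies between TAP2 and TAP1, and PSMB9 on the other side of TAP1. IRF1, an interferon-responsive transcription factor, was higher by 1.38 (edgeR adjusted p = 1.7e-09), and the class I gene HLA-E by 0.75 (edgeR adjusted p = 3.15e-10).

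The chaperonin ring, an abundant complex that folds cytosolic proteins, was read beside the proteasome. All 8 of its genes were lower (100% beside 32.7% of all genes tested). Their log2 fold changes had a median of -0.49 and ran from -0.22 to -0.70. TCP1 fell by 0.70 (edgeR adjusted p = 7.98e-17) and CCT6A by 0.57 (edgeR adjusted p = 4.18e-15) on the log2 scale. No difference between the complexes was tested, and the fall of the proteasome subunits is not shown to be particular to them.

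The authors' deposited table compares a group B with a group A that its header does not name. It lists all 47 members, and 38 of them have an adjusted p under 0.05, of which 37 have a ratio below 1 and 1 above. The share of all its genes under that threshold is not given here, so the count of members stands without a background. These 38 were all called here too, and 46 of the 47 ratios had the direction of the treated to DMSO ratio found here. The authors' deposited table belongs to the same series as the counts used here, so this match is not independent evidence. The authors' deposited table gives ratios of 0.634 for PSMB5 and 0.607 for PSMD1. The marginal calls PSME1 and PSMG3 have adjusted p-values of 0.0548 and 0.108 in the authors' deposited table. PSMA1, with a ratio of 0.998 in the authors' deposited table, was the member whose direction differed.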

How the data were processed

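Per the labels' protocols, a directional mRNA kit was used on total RNA. The files deposited by the authors hold unnormalized read counts by gene symbol, 1 file per library. Per the submitters' processing notes, STAR, Cufflinks, DESeq2 and the build hg19 were used, in roles that are not stated. How reads were counted, and with which strand setting, is not given in the sources used here. Reads in no feature made up 10.9% to 13.1% and ambiguous reads 2.27% to 2.38% of the deposited counts, and these 5 rows stayed out of library sizes. The authors' deposited table gives, per gene, the fold ratio of a group B to a group A and a raw and adjusted p-value.

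Counts were tested with edgeR 4.0.16 in R 4.3.3 (quasi-likelihood, TMM, filterByExpr with a minimum count of 10, two-sided, Benjamini-Hochberg over all genes tested, called at 0.05). Values are CPM; SE is the standard error of the log2 fold change. Ratios of subunits used log2 CPM with a prior count of 2. Alternatives were total-count and RLE scaling, no filter, a filter at 5 CPM, DESeq2 1.42.0, a replicate block, a minimum fold of 1.2, other prior counts and each library left out. Replicates differed beyond counting noise (chi-square per degree of freedom 2.38 to 6.22) and were kept as separate samples.

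Any member could be named. Values per library were given in each role for the 2 largest falls and rises, for the catalytic, immune, activator and assembly genes and for PSMD4 and PSMD14, and in related lists for the 2 smallest p-values and some set genes; further genes were named after their values were seen. Some genes of the related and marker lists are not reported here, and the lists' counts include them. The members and lists were chosen with earlier results of these data known. Promoters came from RefSeq (GRCh38.p14) and exon lengths from GENCODE 29.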

Additional observations from a re-analysis of the deposited data

How the results depend on the processing

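Against a minimum fold of 1.2, 4765 of all genes tested changed (2124 lower and 2641 higher), and 26 members (25 lower and 1 higher). With total-count scaling 5 members were higher, beside 5048 of the 12339 genes tested. Leaving out each library in turn gave 37 to 39 lower and 1 to 2 higher members; the lone higher member was found without treated replicate 3, where PSME1 was lost. RLE scaling and DESeq2 gave 38 lower and 2 higher members each, and no filter 39 and 2. A filter at 5 CPM gave 37 and 2 of 45 tested, where PSMB8 and PSMB9 were not tested. Over all genes, 4062 were lower and 4128 higher of 12339 with RLE scaling, and 3914 and 3912 with DESeq2. With no filter 4179 and 4528 of 17781 were, and with a filter at 5 CPM 3444 and 3508 of 9791. Over the left-out libraries 3800 to 4030 genes were lower and 3868 to 4153 higher, of 12485 to 12620 tested. No called member changed sign in any of these settings. The PSMB9 to PSMB6 difference ran from 1.64 to 2.73 over the left-out libraries, and the PSMB8 to PSMB5 difference from 1.05 to 1.99. The deviations of same-numbered libraries correlated at -0.00864, 0.00124 and -0.0553, so no pairing by replicate number was seen. These correlations run over all tested genes and include counting noise. They cannot show that same-numbered libraries had no culture or preparation in common. A fit with the replicate block gave 38 lower and 2 higher members and 3959 lower and 4091 higher genes, and no member's call differed; in the related lists FAF1 lost its call. Depth limits PSMB8 and PSMB9, which had 2 to 13 and 1 to 11 counts in the DMSO libraries. The causes of these shifts were not tested.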
